A study of Drosophila melanogaster with 2 samples.

Results

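The genes for the cytoplasmic translation factors of *Drosophila melanogaster* were described in a chromatin immunoprecipitation and sequencing (ChIP-seq) study of the transcription factor Atf-2. They were taken as all protein-coding genes whose symbol begins with eIF, eEF or eRF and a digit, which gave 53 of 13945 protein-coding genes on the X, the 4 and the arms of chromosomes 2 and 3 in the Release 6 annotation. Of these, 44 encode initiation factors, 7 elongation factors and 2 termination factors. The embryos came from a transgenic line that stably expresses Atf-2 with GFP at its C-terminus, and chromatin was precipitated with an antibody to GFP. Whole embryos of both sexes, aged 0 to 24 h, were used in biological replicates 2 and 3, and DNA was sonicated to 200 to 800 bp. There was 1 group only, so no condition was compared and no test between conditions could be made. All stages of embryogenesis and all tissues were mixed, and the cells that gave each peak are unknown. The libraries of untagged or input chromatin were not analysed here.

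Translation begins when the small ribosomal subunit, loaded with initiator tRNA by eIF2 and held by eIF1, eIF1A and eIF3, is brought to a capped mRNA by eIF4E, eIF4G and the helicase eIF4A. Elongation factors then deliver aminoacyl-tRNAs and move the ribosome, and eRF1 with eRF3 releases the protein at a stop codon. Atf-2 is a basic leucine zipper protein of the ATF/CREB family that is phosphorylated by stress-activated kinases, and proteins of this family bind the cyclic AMP response element (CRE), TGACGTCA. The promoters of many housekeeping genes in flies hold the DNA replication-related element (DRE), TATCGATA, bound by the factor DREF.

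A promoter summit is the highest point of a peak lying within 500 bp of any annotated transcription start site (TSS) of a gene. The main list holds 3265 peaks thresholded by the authors on the irreproducible discovery rate (IDR), which compares the ranks of peaks between replicates. Signal is the value the authors' caller gave a peak, and neither its measure nor its unit is defined in the sources used here. The pooled list and the list of each replicate hold 30000 regions each, background included, so a region listed there has not passed a threshold. The depth of the libraries is unknown. Ranks count from 1 for the strongest region of a list, and distances are negative upstream of the TSS.

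Stretches around 8 of the 17 strongest promoter summits described below are shown first, as examples of summits over translation factor genes with and without a DRE close by. The summits of eIF1, eIF2gamma and eIF4EHP lie closer to a TSS of a neighbouring gene than to that of the factor gene. Each stretch is the part within 50 bp of the summit that holds no exon, read 5′ to 3′ on the strand of the gene from the RefSeq Release 6 (dm6) genome. In the first 5 stretches the capitals mark each DRE. These stretches lie at chr3R:29220118-29220171 (plus strand) for eEF1gamma, chr3L:3222961-3223059 (plus) for eIF1, chr3R:4433896-4433963 (minus) for eIF3a, chr3L:20348261-20348354 (plus) for eRF1 and chr3R:15263459-15263551 (minus) for eIF2gamma.
eEF1gamma: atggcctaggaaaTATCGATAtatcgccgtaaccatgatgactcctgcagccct
eIF1: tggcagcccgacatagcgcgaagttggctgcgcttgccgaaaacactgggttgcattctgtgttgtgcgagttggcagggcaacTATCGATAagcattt
eIF3a: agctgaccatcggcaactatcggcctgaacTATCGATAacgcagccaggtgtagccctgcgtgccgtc
eRF1: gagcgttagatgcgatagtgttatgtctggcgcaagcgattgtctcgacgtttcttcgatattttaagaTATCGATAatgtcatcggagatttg
eIF2gamma: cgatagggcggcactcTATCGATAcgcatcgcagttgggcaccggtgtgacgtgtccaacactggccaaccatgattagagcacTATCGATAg

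The next 3 stretches hold no DRE, and the capital marks the base of the summit. They lie at chr3R:24109150-24109250 (minus) for eIF4EHP, chr3L:12526928-12527028 (minus) for eIF2beta and chr2L:12434365-12434451 (plus) for eRF3. The eIF4EHP stretch was the richest in A and T of the stretches shown, with a GC content of 16.8%, against 54.8% in the stretch of eIF2gamma.
eIF4EHP: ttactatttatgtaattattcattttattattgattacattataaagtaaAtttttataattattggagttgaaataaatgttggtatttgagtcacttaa
eIF2beta: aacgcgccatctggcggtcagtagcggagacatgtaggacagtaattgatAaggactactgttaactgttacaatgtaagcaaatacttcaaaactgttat
eRF3: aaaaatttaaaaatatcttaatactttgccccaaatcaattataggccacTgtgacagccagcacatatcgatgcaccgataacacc

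Atf-2-GFP had an IDR promoter summit at 17 of the 53 translation factor genes, and these included eEF1gamma, eIF6, eIF4EHP, eIF3c and eIF1 with the highest signals. That is 32.1% of them, with an exact 95% Clopper-Pearson interval of 19.9 to 46.3%, which covers counting error over genes only. The share over all protein-coding genes was 14.9%. The share of factor genes was above that of all genes at each depth of the pooled list. Of the 1000 strongest pooled regions, summits lay at 6 factor promoters (11.3%, against 5.39% of all genes), and of the 5000 strongest, at 22 (41.5%, against 20.7%). Any pooled region lay at 37 (69.8%, against 51.1%). The interval at the 1000 strongest (4.27 to 23%) holds the share of all genes. Those at the 5000 strongest (28.1 to 55.9%) and at any pooled region (55.7 to 81.7%) lie above it. The genes were chosen with results of these data known, and no test of the difference was made.

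The classes differed in their counts, but the elongation and termination classes are small and the difference between classes was not tested. Initiation factors had an IDR promoter summit at 11 of 44 genes (25%, interval 13.2 to 40.3%), elongation factors at 4 of 7 (57.1%, 18.4 to 90.1%) and termination factors at both of 2. The 14.9% of all genes lies inside the interval of the initiation factors, by far the largest class, and below that of the elongation factors. The median signal of the strongest IDR promoter peak was 129.9 over the 11 initiation genes, 159 over the 4 elongation genes and 98.0 over the 2 termination genes. The ranges overlapped between initiation, from 91.6 to 278, and elongation, from 107 to 336. Over all 17 factor genes the median was 129.9, somewhat below the 139.5 over the 2081 genes of the genome with such a summit. The share of peaked genes over all factor genes together was thus above that of all genes, while the median signal of those peaks was not.

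**Figure D1:**
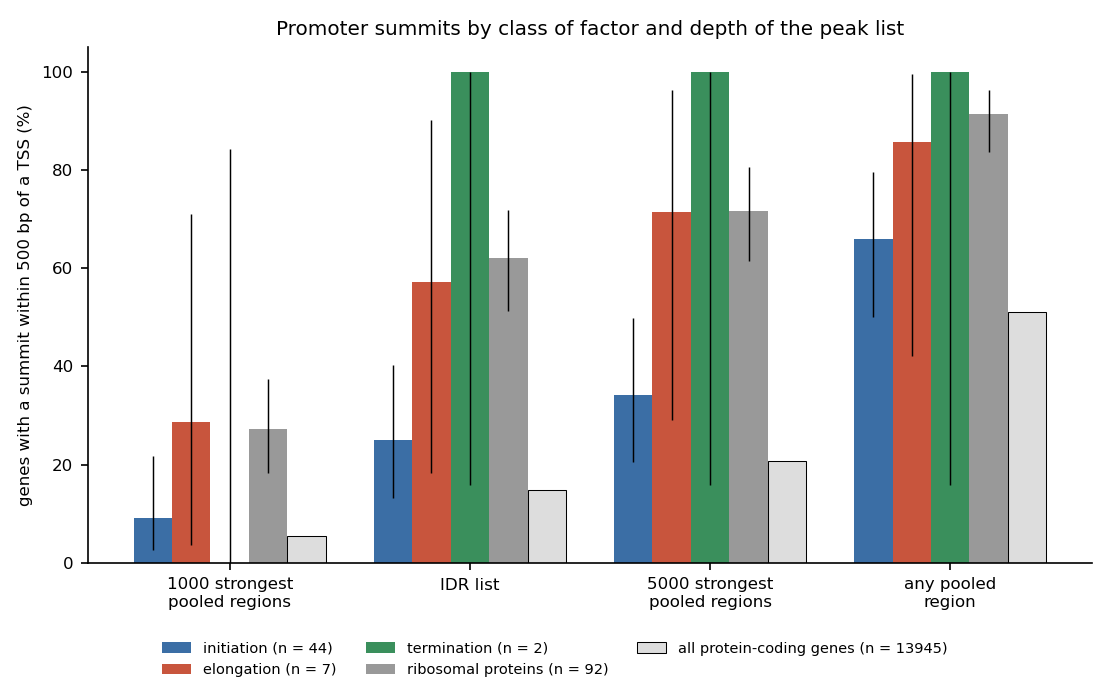
Share of genes with a summit within 500 bp of a TSS (%, y axis) for initiation, elongation and termination factors, cytosolic ribosomal protein genes and all protein-coding genes, in lists of growing depth (x axis). Lines are exact 95% Clopper-Pearson intervals over genes; in the IDR list the bars stand at 25%, 57.1%, 100%, 62% and 14.9%.

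Among the elongation factors, eEF1gamma, a subunit of the complex that recharges eEF1alpha with GTP, had the strongest peak of any factor gene. Its peak at 3R:29220037-29220250 had its summit at 29220168, 4 bp upstream of the TSS, with a pooled signal of 335.9 at rank 260. The overlapping region had a signal of 220.7 (rank 268) in replicate 2 and 115 (rank 256) in replicate 3. The ranks were nearly the same in both replicates. The other subunits of that complex had no IDR promoter summit. The gene for eEF1delta reached 75.6 in the pooled list (rank 3851), with 48.5 in replicate 2 and 26.5 in replicate 3, which placed it just below the lowest IDR signal of 84.6. The pooled region at eEF1beta was weaker, at 42.9 (rank 9714).

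The paralogues of eEF1alpha, the factor that brings aminoacyl-tRNA to the ribosome, stood apart. At eEF1alpha1 the summit at 2R:11892041, in an intron 81 bp upstream of an internal TSS, had a pooled signal of 178.1 (rank 956), with 122.1 in replicate 2 and 52.7 in replicate 3. A further IDR summit of 93.9 lay 177 bp upstream of its outermost TSS but only 21 bp from a TSS of the neighbouring gene ERp60. At eEF1alpha2 there was no pooled promoter region, and only a replicate 2 region of 20.3 was listed. The translocase gene eEF2 had an IDR summit of 140.5 (rank 1454) in its 5′ UTR, 46 bp downstream of the TSS, with 88.5 in replicate 2 and 54.4 in replicate 3. The gene eEF5 encodes the hypusine-bearing factor (eIF5A in other species) that helps the ribosome past stalling sequences. Its summit, 3 bp upstream of the TSS, had a signal of 106.6 (rank 2302), with 68.7 in replicate 2 and 39.4 in replicate 3. All 4 elongation genes with an IDR summit thus kept a region among the 3265 strongest of each replicate.

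Both release factor genes were peaked, at the weak end of the IDR list. At eRF1, which reads the stop codon, the summit lay 44 bp upstream of the TSS with a signal of 104.8 (rank 2355), with 79.0 in replicate 2 and 33.9 in replicate 3 (rank 3069). The gene for its GTPase partner eRF3 had the lowest value of all 17 genes, 91.3 (rank 2909), with its summit 37 bp upstream of the TSS. Replicate 2 gave 75.5 (rank 2055) there, but the overlapping region of replicate 3 gave 15.9, at rank 16062, with its summit 262 bp away. The region overlapping the eRF3 peak thus ranked far better in replicate 2 than in replicate 3, where it need not be the same peak.

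Of the initiation factors, the peaked genes were spread over several complexes. The eIF3 scaffold, the largest complex, had an IDR promoter summit at 4 of its 16 genes (25%, interval 7.27 to 52.4%), namely eIF3c, eIF3h, eIF3a and eIF3m. That interval holds the 14.9% of all genes. The strongest was at eIF3c, a core subunit, at 2R:17665670-17665786 with a signal of 237.8 (rank 546), 156.2 in replicate 2 and 81.6 in replicate 3, and its summit lay 18 bp downstream of the TSS. At eIF3h, a summit of 156.5 (136.7 in replicate 2, and 47.6 in replicate 3 with its summit 281 bp away) lay in an intron 296 bp downstream of the TSS, and another of 116.7 lay 14 bp downstream of it. The summit at eIF3a had 129.9 (86.7 and 45.8), 18 bp upstream of the TSS, and that at eIF3m had 128.9 (80.7 and 40.9), 54 bp upstream. Among the paralogue pairs of eIF3, neither member had an IDR promoter summit. The pooled signal was 28.8 at eIF3f1, 28.1 at eIF3f2 and 23.5 at eIF3g1, all near the lowest value in the pooled list, 23.3. Only replicate regions were listed at eIF3d1 (20.1 in replicate 2 and 25.4 in replicate 3), and none at eIF3d2 and eIF3g2.

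The eIF2 complex carries the initiator tRNA, and eIF2B is its exchange factor. An IDR promoter summit was at 2 of the 3 eIF2 genes (interval 9.43 to 99.2%) and at none of the 5 eIF2B genes (0 to 52.2%), and both intervals hold the 14.9% of all genes. Of the eIF2 subunits, eIF2beta had an IDR summit of 96.2 (rank 2692; 61.3 in replicate 2, 33.1 in replicate 3), 247 bp upstream of the TSS. The summit at eIF2gamma, the GTP-binding subunit, had 91.6 (rank 2888; 64.7 and 25.6), 50 bp upstream. That summit lay 44 bp from a TSS of Set and within 500 bp of Su(var)3-9, a histone methyltransferase gene that shares its first exons with eIF2gamma. No region was listed at eIF2alpha, the subunit phosphorylated under stress. The pooled signals of the eIF2B genes were 50.5 at eIF2Bepsilon, 47.5 at eIF2Bgamma, 30.2 at eIF2Balpha and 29.7 at eIF2Bdelta, and none was listed at eIF2Bbeta. However, one of the strongest peaks in the genome, with a signal of 1351 at rank 6, lay 666 bp from the TSS of eIF2Bbeta and 53 bp from that of its neighbour Ugalt, so a wider promoter window would assign it to both.

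**Figure D2:**
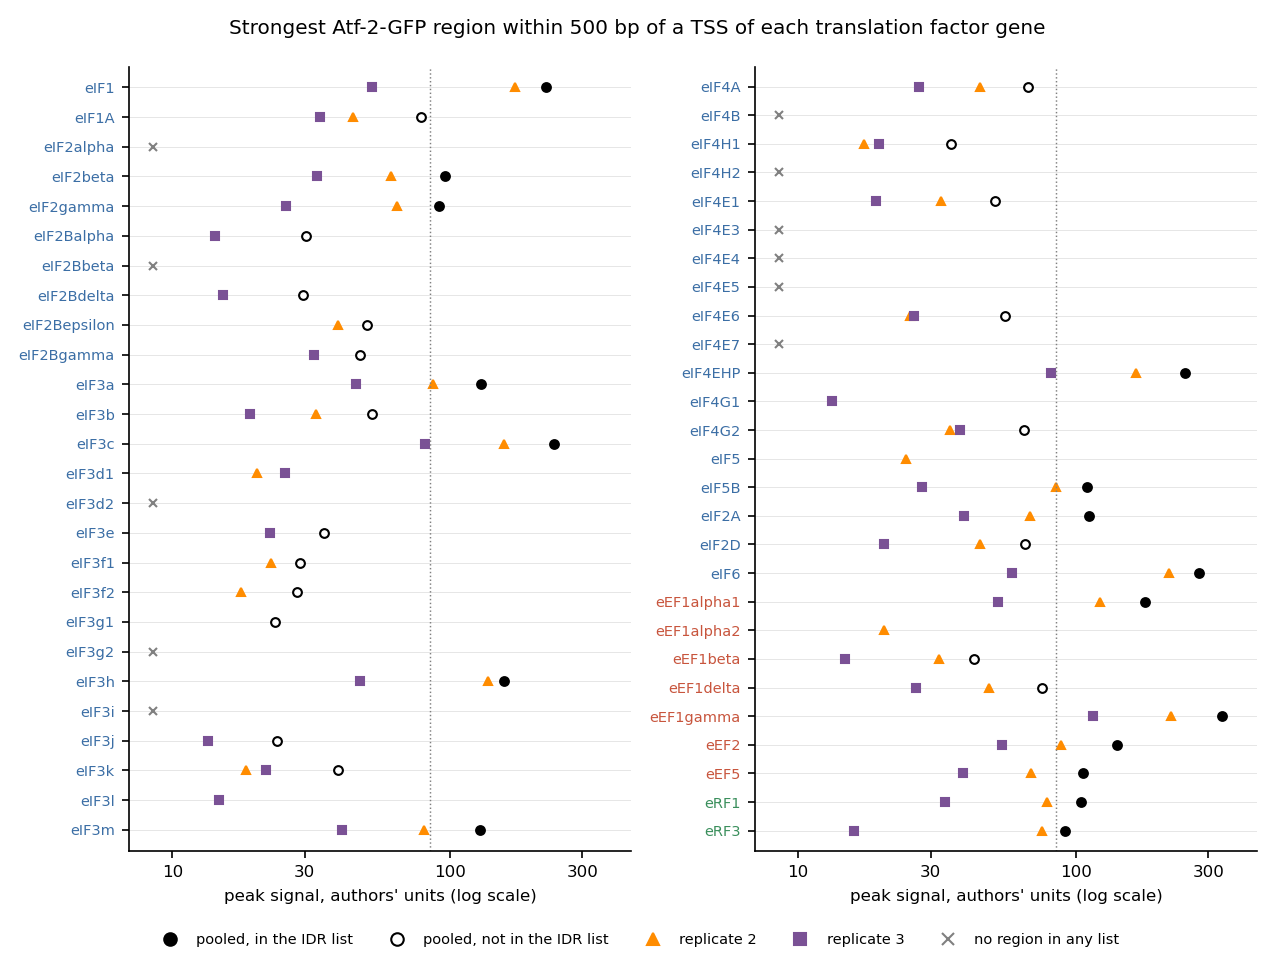
Signal of the strongest region within 500 bp of a TSS (x axis, authors' units, log scale) in the pooled list and in replicates 2 and 3 for each of the 53 genes (y axis, ordered by complex; blue initiation, red elongation, green termination). Filled circles are in the IDR list, the dotted line is its lowest signal (84.6), and crosses mark the 11 genes with no region in any list.

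Of the genes for the cap-binding and mRNA-loading factors, eIF4EHP alone had an IDR promoter summit. It encodes a relative of eIF4E that binds the cap without recruiting eIF4G and represses translation, as it does for caudal mRNA in the early embryo. Its peak at 3R:24109162-24109374 had a signal of 247.3 (rank 498), with 164.6 in replicate 2 and 81.7 in replicate 3. The summit lay 240 bp upstream of its TSS, but 136 bp from a TSS of CG18428. A further IDR summit of 226.3 (rank 606), at 3R:24099153, lay in an intron of eIF4EHP, 9807 bp from its TSS.

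The gene for the main cap-binding protein, eIF4E1, had a pooled signal of 51.0 and eIF4E6 one of 55.6, neither in the IDR list. No region was listed at eIF4E3, a factor of spermatogenesis, or at eIF4E4, eIF4E5 and eIF4E7. The scaffold gene eIF4G2, needed in the male germ line, reached 65.2 in the pooled list (rank 4795), with 35.2 in replicate 2 and 38.2 (rank 2442) in replicate 3. At its paralogue eIF4G1 there was only a replicate 3 region of 13.2. The helicase gene eIF4A had a pooled signal of 67.4 (rank 4568; 45.4 in replicate 2, 27.2 in replicate 3), and its cofactor genes eIF4B and eIF4H2 had no region. No pooled region lay within 50 kb of the TSS of eIF4B, on an arm with 6497 of them, so no peak could be assigned there at any distance used. The nearest IDR summit was 4979388 bp from that TSS, so the lack of IDR peaks spans a region far larger than the gene.

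The remaining initiation genes included some of the strongest. At eIF6, which keeps the large subunit from joining too early, the peak at 2R:23850293-23850523 had a signal of 278.2 (rank 396), with 217.2 in replicate 2 and 59.0 in replicate 3. Its summit lay in a noncoding exon 117 bp upstream of the TSS. At eIF1, which guards start codon selection, the peak at 3L:3222920-3223112 had 222.6 (rank 627; 171.3 and 52.6), but its summit was 332 bp upstream of the TSS and 49 bp from a TSS of the ribosomal protein gene RpL28. The partner gene eIF1A had 78.8 (rank 3638; 44.8 and 34.1), the highest value of a factor gene outside the IDR list. These values just outside, 78.8 at eIF1A and 75.6 at eEF1delta, compare with 91.3 at eRF3 and 91.6 at eIF2gamma just inside.

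The gene for eIF5B, the GTPase that joins the subunits, had a promoter signal of 110 (rank 2182; 85.3 and 27.9) 113 bp upstream of a TSS. It also held 4 further IDR summits in its introns, from 87.2 to 127.6. At eIF5, which triggers GTP hydrolysis by eIF2, only a replicate 2 region of 24.4 was listed. The genes of eIF2A and eIF2D, factors that can deliver initiator tRNA without eIF2, had values of 111.9 (68.3 and 39.6, in the IDR list) and 65.6 (45.2 and 20.3, not in it). Of all 36 factor genes without an IDR promoter summit, 5 had a pooled region among the 5000 strongest (65.2 to 78.8), 15 a weaker pooled region (23.5 to 55.6), 5 a region in a replicate list only, and 11 none in any list. In 7 of the 36 (eIF2Bbeta, eIF2Bgamma, eIF2D, eIF3d1, eIF3g1, eIF4A and eIF4G2), an IDR summit lay elsewhere in the gene or within 2000 bp of it. The nearest TSS to these summits was that of another gene (Ugalt, CG8187, Rpn2, GILT2, Smyd3 and ifc, in that order) except at eIF4G2. There, a TSS of CG33111 was equally near, at 1010 bp. The matching share over all genes was not computed, so the count cannot be read as a result about the factor genes.

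The 17 summits lay close to the TSS. The median distance of the strongest IDR promoter summit was 54 bp (range 3 to 332), and 11 of 17 (64.7%) lay within 100 bp, against a median of 143 bp and 35.4% within 100 bp over the 2081 genes with such a summit. For the 57 ribosomal protein genes with a summit the median was 32 bp, closer still. Of the 17, 14 lay upstream of the nearest TSS and 3 (eIF3c, eEF2 and eIF3h) downstream, near the general pattern of 1820 upstream and 258 downstream over the 2081 genes. By annotation, 9 lay in intergenic sequence, 4 in a 5′ UTR, 3 in an intron and 1 in a noncoding exon.

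**Figure D3:**
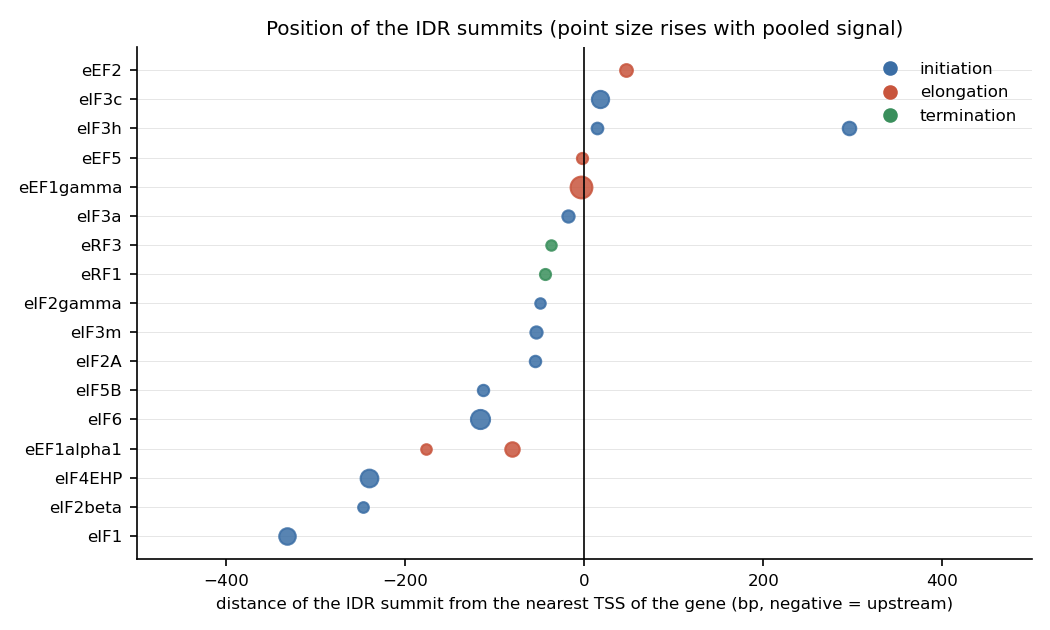
Distance of each IDR summit within 500 bp from the nearest TSS of the gene (x axis, bp, negative upstream) for the 17 factor genes (y axis), with point size rising with pooled signal. Most points stand just left of the TSS; eIF1, at 332 bp upstream, and the intronic summit of eIF3h, at 296 bp downstream, are farthest.

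Neighbours shared several of these peaks. The strongest summit was also within 500 bp of a TSS of another protein-coding gene in 8 of 17 cases (47.1%), against 58.3% of the 2081 genes with an IDR promoter summit. It was closer to the other gene in 3 of them, eIF1, eIF2gamma and eIF4EHP, so those peaks cannot be assigned to the factor gene by distance. Another gene's TSS lay within 500 bp of that of the factor gene in 10 of the 17 with an IDR summit, in 12 of the 36 without, and in 30.9% of all genes. Neither this share nor that of summits closer to another gene was computed over the 2081 genes with an IDR promoter summit. The counts of 10 and 3 thus cannot be read as results about the factor genes. By chromosome, the IDR summits were at 3 of 6 factor genes on 2L, 5 of 12 on 2R, 5 of 12 on 3L and 4 of 15 on 3R. The shares of all genes on these arms were 14.7%, 13.5%, 15.3% and 16.5%. IDR promoter summits were at none of the 7 factor genes on X, where 14.3% of all genes had one. They were also absent from eIF4G1 on 4, where 11.2% of all genes had one. The 7 genes on X (eIF2alpha, eIF2Bbeta, eIF2Bepsilon, eIF3g1, eIF4E7, eIF4H1 and eIF5) leave an upper bound of 41% by the exact interval.

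The IDR step was run on these same replicates, so the values of both are given as a description and not as a check of the peaks. At all 17 genes the rank in the IDR list was also the rank in the pooled list. At eRF3 the overlapping regions ranked 2055 in replicate 2 and 16062 in replicate 3. The replicate 3 summit lay 262 bp away, so these ranks need not describe the same peak. All 17 peaks were overlapped by a region in each replicate list, and the region was among the 3265 strongest of both for 14 (82.4%), against 73.2% of all 3265 IDR peaks. The 3 others, eIF2gamma, eIF5B and eRF3, fell below that rank in replicate 3. The ratio of the replicate 2 to the replicate 3 signal had a median of 2.02 (1.63 to 4.75), close to 1.93 over all IDR peaks, and the lists are not scaled to each other. Spearman's rho between the replicate signals was 0.86 over the 17 peaks, and every point comes from the same pair of libraries. Summits moved by a median of 7 bp in replicate 2, where all 17 stayed within 50 bp, and by 12 bp in replicate 3, where 14 did. The exceptions in replicate 3 were eIF3h (281 bp), eRF3 (262 bp) and eIF5B (81 bp). At eIF3h each replicate listed 2 promoter regions, and only the strongest overlapping region was matched to a peak. In replicate 3 the matched region was the one near the TSS, and in replicate 2 the intronic one.

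Taking the 3265 strongest regions of a single replicate gave 17 factor genes in replicate 2 (32.1%, against 15.0% of all genes) and 16 in replicate 3 (30.2%, against 14.1%). The 17 of replicate 2 were the genes of the IDR list, while replicate 3 shared 14 of them and added eIF1A and eIF4G2.

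**Figure D4:**
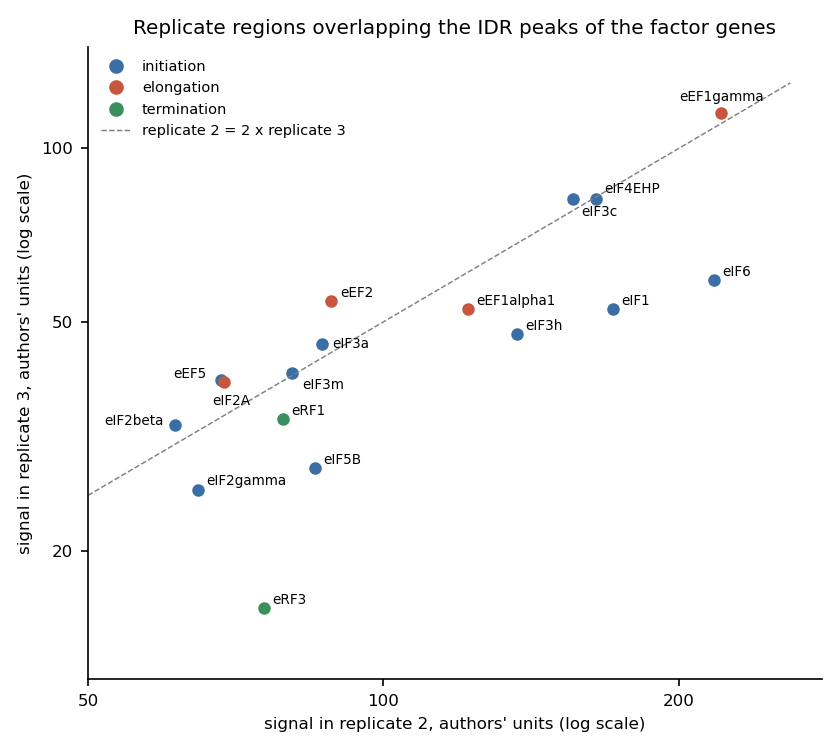
Signal of the region that overlaps the strongest IDR promoter peak of each of the 17 factor genes in replicate 2 (x axis) and replicate 3 (y axis), in the authors' units on log scales; the dashed line marks a 2-fold ratio. Most points lie near the line, and eRF3 lies farthest below it, with a ratio of 4.75.

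Motifs were counted from 250 bases before to 50 after the outermost TSS of each gene, on both strands. No factor promoter held the CRE, TGACGTCA, which was in 0.437% of all protein-coding promoters, and none of the 17 summits had one within 100 bp. The CRE was also rare at the strongest promoter summit of every gene with one, at 9 of 1459 distinct summits (0.617%). A count of 0 in 17 thus does not set the factor genes apart. The DRE, TATCGATA, was in 15 of 53 factor promoters (28.3%), against 9.37% of all genes and 30.4% of the 92 ribosomal protein genes. It was in 6 of the 17 with an IDR summit (eEF1gamma, eIF2gamma, eIF3a, eIF3c, eIF6 and eRF1) and in 9 of the 36 without, such as eIF1A, eIF2alpha and eIF4B. Over all 2081 genes with an IDR promoter summit it was in 14.6%. The DRE was thus found at factor promoters with and without a peak. Within 100 bp of the strongest summit it was found at 6 of 17 (eEF1gamma, eIF1, eIF3a, eIF2A, eRF1 and eIF2gamma). The share was 7.68% over the 1459 distinct strongest promoter summits of all genes with one. The stretches printed above show it for all of these but eIF2A, where it lay in an exon. The summits of eIF1 and eIF2gamma lay closer to a TSS of RpL28 and of Set, and the promoter window of eIF1 itself held no DRE. The promoter of eIF2gamma held 3 copies, of which the printed stretch shows 2 whole and the end of the other at its first bases.

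The TCT initiator, known from ribosomal protein genes, was searched as TCTTT or CCTTT with its C within 5 bases of a TSS on the sense strand. It was found at 6 of 53 factor genes (11.3%; eEF2, eEF5, eIF3f1, eIF3i, eIF3m and eIF4A), against 3.31% of all genes and 60.9% of ribosomal protein genes. The initiator TCAGT was at 2 of 53 (3.77%), against 14%. The M1BP site, GGTCACACT, was in 3 (5.66%, against 6.05%), the E-box CAGCTG in 4 (7.55%, against 17.7%) and TATAAA in 25 (47.2%, against 45.9%). TATAAA was in 12 of the 17 with an IDR summit (70.6%) and 13 of the 36 without (36.1%). Over all genes with and without such a summit it was in 44.6% and 46.1%. From 100 bases before the TSS the order turned, with 17.6% and 27.8% of the factor genes. These shares are near the 16.7% and 25.4% of all genes with and without a summit. The GC content within 100 bp of the summits had a median of 42.8% over the 17 genes (23.4 to 51.2%). That is above the 36.3% of the 1459 distinct strongest promoter summits of all genes with one. Whether GC content or the DRE bears on the peaks was not tested.

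**Figure D5:**
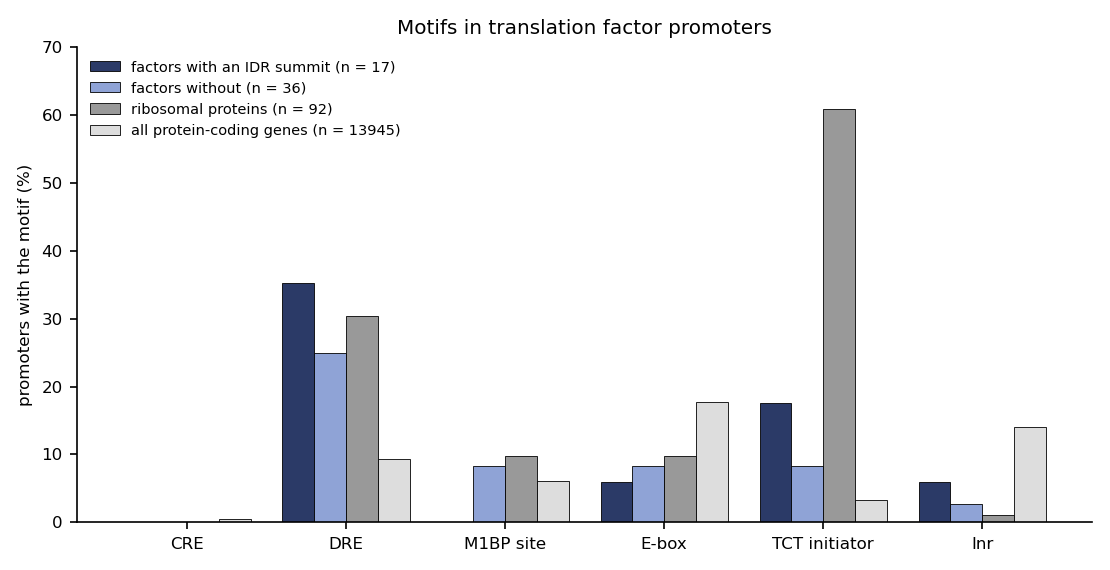
Share of promoters holding each motif (%, y axis) for factor genes with and without an IDR promoter summit, ribosomal protein genes and all protein-coding genes. The DRE stood at 35.3%, 25%, 30.4% and 9.37% in that order, and no factor promoter held the CRE.

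Other parts of the translation machinery gave a frame for these counts. Cytosolic ribosomal protein genes had an IDR promoter summit at 57 of 92 (62%, interval 51.2 to 71.9%). Genes for aminoacyl-tRNA synthetases, matched by symbol with mitochondrial forms admitted, had one at 6 of 33 (18.2%, 6.98 to 35.5%). The translation factor genes, at 32.1%, lay between these groups, with intervals that overlap that of the synthetases but not that of the ribosomal proteins. Partners and regulators of the factors, of which 24 were matched, had one at 6 (25%, 9.77 to 46.7%). The share of all genes, 14.9%, lies inside the intervals of the synthetases and of the partners, so neither count stands apart from it.

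The values of the peaked regulators are given as a description. Thor, the fly 4E-BP that blocks the binding of eIF4G to eIF4E, had a signal of 132.3 (rank 1615; 92.7 in replicate 2, 37.9 in replicate 3), 14 bp upstream of its TSS. The eIF4E kinase gene Lk6 had 114.4 (rank 2051; 81.3 and 42.8), 62 bp upstream. The genes Dph1 and Dph4, for enzymes that make the diphthamide residue of eEF2, had 222.6 and 279.9, although the summit at Dph4 was closer to a TSS of RpL13A (54 bp) than to its own (at -295 bp). HBS1, a relative of eRF3 in ribosome rescue, had 108.2, and krasavietz (kra), an eIF5 mimic, 89.1, where the summit was closer to a TSS of SecS (54 bp) than to that of kra (at -243 bp). The genes of the poly(A)-binding protein pAbp and the eIF2alpha kinase Gcn2 reached 74.1 and 77.4 in the pooled list and were not in the IDR list.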

How the data were processed

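Atf-2-GFP ChIP-seq lists on build dm6 were used for biological replicates 2 and 3. The deposited readme texts say that a replicate's list rests on its own alignments with a control, that both replicates with a control gave the pooled list, and that IDR was run on these lists. The aligner, the peak caller and the IDR threshold have no name or value given in the sources used here. As deposited by the authors, each peak has a signal, which was used to rank and describe peaks. The deposited lists also give a −log10 q-value, which was not used. Each of the 3265 IDR regions stands in the pooled list too, with its interval and signal unaltered. Lists hold no read totals, so depth is unknown. The lists on build dm3 were not used.

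Summits were set against the Ensembl release 115 annotation of Release 6 in Python 3.11.15 with numpy 2.4.6, pandas 2.3.3, scipy 1.17.1 and matplotlib 3.10.9. A gene was counted if a summit lay within 500 bp of any of its TSSs, and its strongest region was reported. A replicate region was matched to a peak by an overlap of at least 1 bp, keeping the strongest. Coordinates count from 1. Counting was tested on simulated data with planted summits and motifs. No p-values were computed, since there was 1 group. Shares carry exact 95% Clopper-Pearson intervals. The members, gene lists and motifs were chosen with earlier results of these data known. Named genes were those with an IDR promoter summit or a pooled promoter region among the 5000 strongest, all elongation and termination factors, and the paralogue families eIF4E, eIF4G, eIF2B, eEF1alpha and eIF3 d, f and g. Others named with a value, a motif or a missing region (eIF2alpha, eIF4B, eIF4H2 and eIF5, and in lists eIF3i and eIF4H1) were chosen after their values were seen. One partner symbol, DHPS, was not matched in the annotation. Alternatives were the promoter distance, the outermost TSS, interval overlap, the stronger peaks, each replicate alone and the motif window.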

Additional observations from a re-analysis of the deposited data

How the results depend on the processing

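The count of 17 factor genes with an IDR promoter summit was 16 at 250 bp (eIF1 lost), 18 at 1000 bp (eIF2Bbeta gained), 17 with the outermost TSS only and 18 with interval overlap, beside 11.8%, 17.3%, 13.1% and 16.1% of all genes. With the IDR peaks above their median signal it was 8 (15.1%, against 8.28% of all genes), with 5 initiation, 3 elongation and 0 termination genes. Leaving out each replicate gave 16 to 17 factor genes in all, 11 to 11 initiation, 4 to 4 elongation and 1 to 2 termination genes. Without replicate 2 the termination count was 1, with eRF3 lost. The median signal of the 17 genes was 129.9 in the pooled list, 45.8 without replicate 2 and 86.7 without replicate 3, on lists that are not scaled to each other. With 100 bases before the TSS, 13 factor promoters held the DRE and 13 TATAAA, against 15 and 25 in the longer window. The TATAAA share of factor genes with an IDR summit then fell below that of factor genes without (17.6% and 27.8%, against 70.6% and 36.1%). Over all genes with and without such a summit the shares were 16.7% and 25.4%, against 44.6% and 46.1% in the longer window. The dm3 lists were not run. With 2 replicates of 1 group and no control samples analysed, neither the spread between embryo collections nor signal without the GFP tag could be estimated, and depth could not be weighed. No paired analysis was possible because there was 1 group.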
